A study of Drosophila melanogaster with 2 samples.

Results

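The Iroquois genes ara, caup and mirr and the GATA factor gene pnr were described by the accessible regions that ATAC-seq, in which a transposase cuts and tags open DNA, gave in ML-DmD17-c3 (D17), a Drosophila line from larval haltere imaginal disc. The only group was D17 cells with no treatment or altered allele named, 2 libraries whose origin from separate cultures is not stated and 1 deposited peak list that gives no value per library. A region was counted where it overlapped a member gene, lay within 5 kb of its ends, or lay between ara and caup or between caup and mirr. This gave 64 of 26571 regions, 58 at the Iroquois locus and 6 at the pnr locus. Positions are those of Release 6 (dm6). The table of genes used here gives no strand, so the ends of a gene are called lower and upper by coordinate, and a lower end may be a start or a stop.

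The Iroquois genes encode closely related homeodomain factors of the TALE class. They lie side by side as a complex, in which ara and caup share regulatory DNA. In the wing disc they act as prepattern genes of the notum, where they activate the proneural genes achaete and scute, and they also act in vein and dorsal eye patterning. The product of pnr is a zinc finger factor that binds GATA motifs, sets the medial part of the notum and acts with its cofactor Ush. Both loci are known Polycomb targets from other work in Drosophila.

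Each of the 4 member genes had a strong region at its lower end, meaning a region within 500 bp of that end whose fold over local background was in the highest 10% of the list (at least 2.999). Such a region lay at the lower end of 6.16% of all protein-coding genes and at either end of 11.4%. None of the 4 had a strong region at its upper end, where 6.32% of protein-coding genes had one. A region of any strength lay within 500 bp of an end of all 4, against 68.6% of protein-coding genes. With a limit at the highest 5% by fold, only caup and mirr, 2 of the 4, had a strong region at the lower end, and with the highest 10% by pileup 3 had one, without pnr. The members were chosen with earlier results of these data known, and no test was made of these counts.

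The strongest of the 4 was at caup, whose lower end lay inside the region 3L 12609331 to 12609840. Its summit stood 147 bp outside the gene. The authors' fold there was 6.73, with a 95% Poisson interval of 6.03 to 7.48, from a pileup of 340 reads over a local background of 49.7 reads. Of all regions in the list, 0.862% had a higher fold. Such intervals cover counting error only. The libraries are bulk, so a region open in fewer cells and one cut less often per cell cannot be told apart.

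The lower end of mirr lay in a wider region of 1064 bp, 3L 12692750 to 12693813, with a fold of 4.26 (interval 3.85 to 4.70). Its summit pileup was 395 reads, the highest of all 64 regions, but its local background was 91.9 reads, also the highest. By fold caup therefore stood above mirr, with intervals that did not overlap, while by pileup mirr stood above caup with overlapping intervals (357 to 436 reads at mirr and 305 to 378 reads at caup). Of all regions, 1.64% had a higher pileup than the mirr region and 2.37% had a higher pileup than the caup region.

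At pnr the region 3R 16025807 to 16026263 covered the lower end, with its summit 49 bp outside the gene. The fold was 3.86 (interval 3.31 to 4.47), from 174 reads over 44.4 reads, the lowest background of the list. At ara the region 3L 12580196 to 12580710 reached 39 bp into the gene, and its summit stood 202 bp outside. Its fold was 3.82 (interval 3.29 to 4.42), from 183 reads over 47.1 reads. In order of fold, caup stood first, followed by mirr, pnr and ara, and the intervals of these last 3 overlapped one another.

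Of 13946 protein-coding genes, 9570 had a region within 500 bp of an end. Among these, ranked by the highest fold there, caup stood at rank 90, mirr at 542, pnr at 747 and ara at 770. All 4 are of 12.2 to 16.6 kb, longer than the median protein-coding gene of 2161 bp. Among the 965 protein-coding genes of 10 to 20 kb, a class chosen after the data were seen, caup stood at rank 21, mirr at 96, pnr at 141 and ara at 143. In this class 26% had a strong region at an end.

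**Figure D1:**
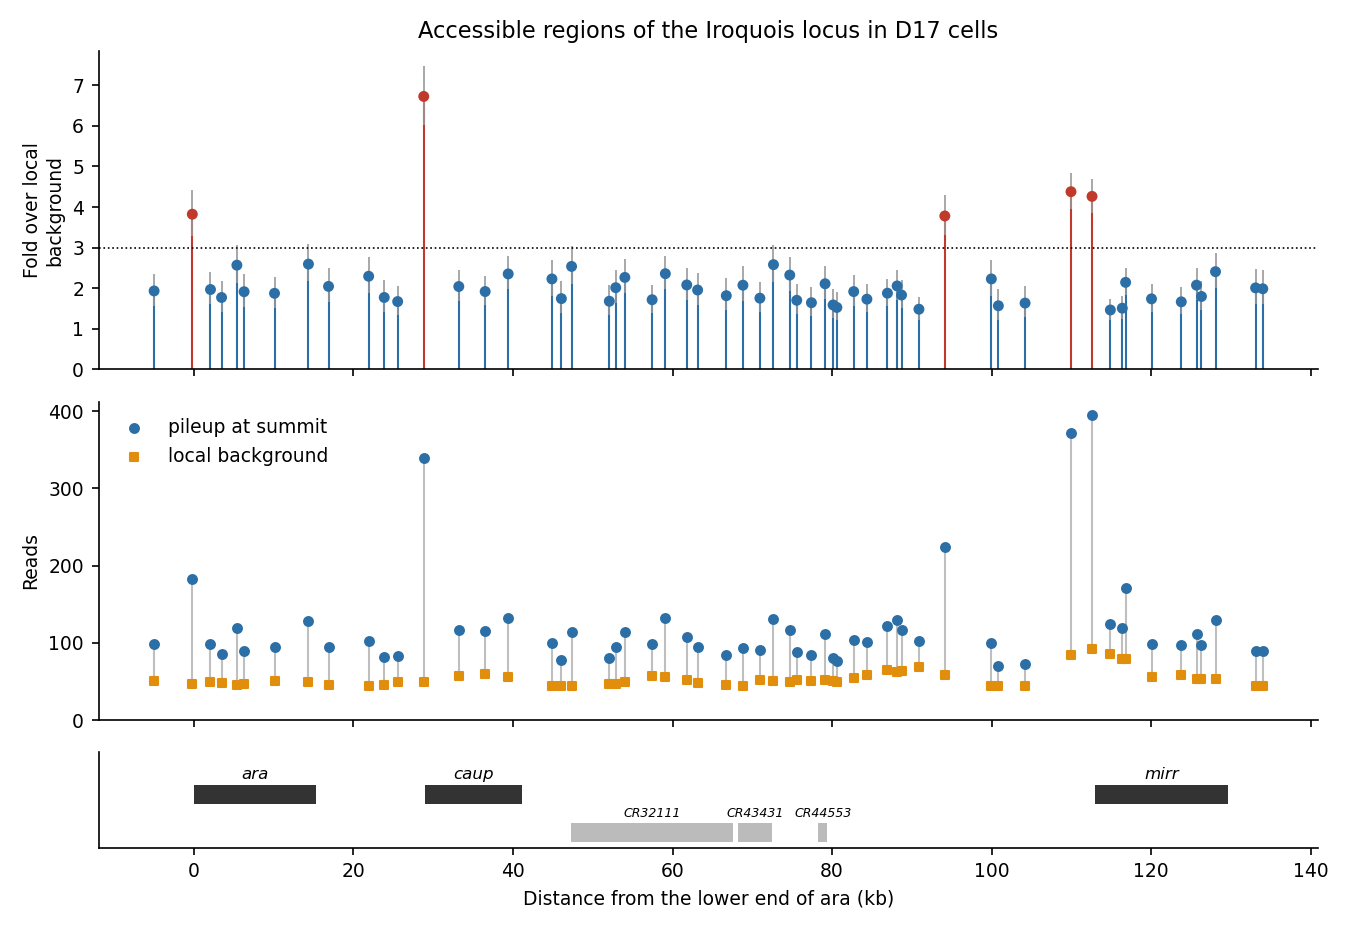
Regions of the Iroquois locus by distance of the summit from the lower end of ara in kb. The top panel gives the fold over local background with 95% Poisson intervals, with strong regions in red and the limit of 2.999 dotted, the middle panel the reads at the summit and in the local background, and the bottom panel the genes. Of 58 regions, 5 are strong: 3 touch the lower ends of ara, caup and mirr and 2 lie between caup and mirr.

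The other strong regions of the Iroquois locus were both in the interval between caup and mirr. The nearer to mirr, 3L 12690254 to 12690960, had its summit 3015 bp outside the lower end of mirr. Its fold was 4.38 (interval 3.95 to 4.84), from 372 reads over 84.2 reads, which made it the highest fold within 5 kb of mirr. Its interval overlapped that of the region at the end of mirr itself.

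The other, 3L 12674610 to 12675241, lay 18831 bp from mirr in a stretch with no annotated gene. It had a fold of 3.78 (interval 3.30 to 4.31), from 224 reads over 58.5 reads. It was the strongest region of the complex that was over 5 kb from every member gene. A gap of 5.21 kb with no region followed it on the side of mirr.

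Strong regions made up 5 of 58 at the Iroquois locus (8.62%) and 1 of 6 at pnr, against 10.1% of all regions. The share over both loci, 9.38%, was near that background. Over both loci together, strong regions were therefore no more frequent than in the list, and 4 of the 6 were those at the lower ends. The gap in fold was wide: the lowest strong fold was 3.78 and the highest fold below the limit was 2.78.

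**Figure D2:**
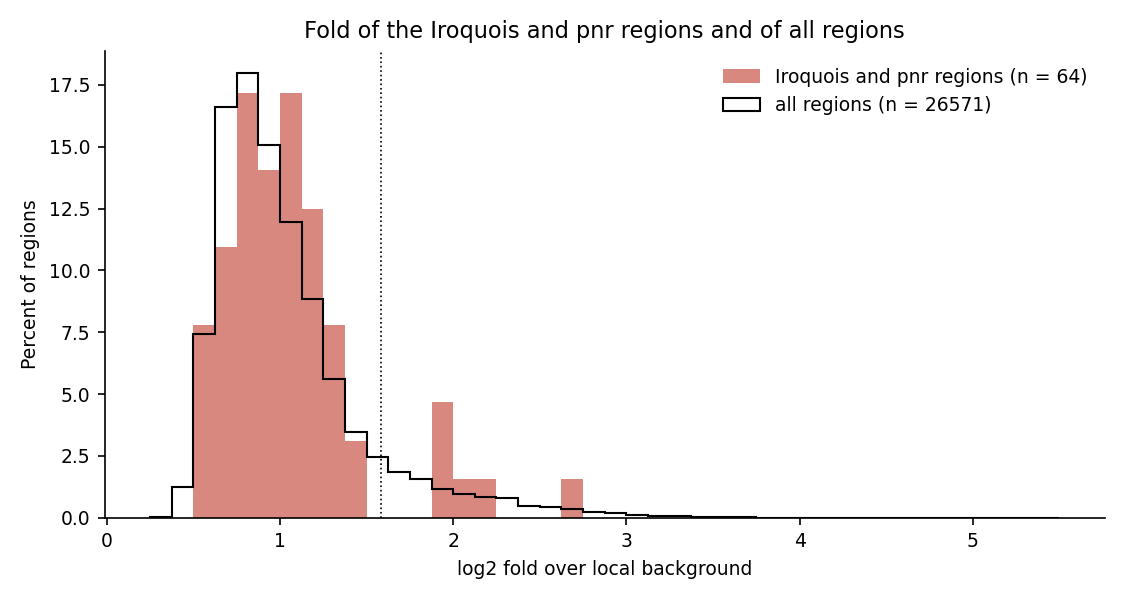
Percent of regions by log2 fold over local background, for the 64 Iroquois and pnr regions (red) and all 26571 regions (black outline). The dotted line is the limit for a strong region; 6 of the 64 regions lie to its right, and the others lie within the bulk of the list.

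Most regions of the Iroquois locus were not strong, and the medians over all its regions were near those of the list. The median fold of the 58 regions was 1.96 and the lowest 1.46, against a median of 1.90 over all regions. The median pileup was 100.5 reads against 101, and the median width 475.5 bp against 497. Of the 58 regions, 35 (60.3%) were in the 50% of the list with the higher score, and 50.6% of all regions were.

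Regions stood close together at this locus. It held 41.6 regions per 100 kb, against 20.7 on 3L and 19.3 over the assembly. Regions covered 20.7% of its sequence, against 13.3% of 3L and 12.5% of the assembly. The median gap between neighbouring regions was 1497 bp, against 1972 bp over the list. Among 946 consecutive windows of the same length on the large chromosome arms, the median held 28 summits, and 0.529% held 58 or more.

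The neighbouring sequence was as dense. The window of the same length directly below the locus held 60 summits and the one directly above held 52. Below ara lies sowah, the next protein-coding gene, with 18 summits inside it. The density was thus shared by the surroundings on both sides and was not confined to the Iroquois genes. No region within 5 kb of sowah was strong: the highest fold there was 2.75.

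Within the complex, the number of regions followed the stretches unevenly. The interval between caup and mirr, 71.8 kb long, held 32 regions, or 44.5 per 100 kb. With 13.6 kb, the interval between ara and caup held 5, or 36.7 per 100 kb. Inside the genes lay 8 summits in mirr, 6 in ara and 3 in caup, or 48.2, 39.1 and 24.7 per 100 kb. The median gene of 10 to 20 kb held 4.

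The long interval also holds non-coding RNA genes, whose names are lncRNA:CR32111, lncRNA:CR43431, lncRNA:CR44553 and lncRNA:CR44552. Their bodies held 9, 2, 1 and 0 summits, in that order. A region of fold 2.54 (interval 2.10 to 3.04) covered the lower end of lncRNA:CR32111, at 3L 12627734 to 12628415. Another of fold 2.58 (2.16 to 3.06), 3L 12653134 to 12653427, lay just above lncRNA:CR43431. These were the highest folds in the interval after the strong regions.

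The local background was not flat along the complex. From below ara to 3L 12665100 it was at most 59.5 reads. It was between 62.3 and 69.2 reads at the 4 regions from 3L 12667315 to 12671709. It was 58.5 reads at 3L 12674610 to 12675241 and 44.4 reads at the regions from 3L 12680450 to 12685003. It was between 78.7 and 91.9 reads at the 5 regions from 3L 12690254 to 12697730. Further inside mirr, from 3L 12700520 to 12709060, it was between 53.0 and 57.9 reads. At the regions above mirr it was 44.4 reads. The median over all regions was 48.2 reads. The lowest background of the list was also 44.4 reads, and 39.7% of all regions had it, so that level was not particular to this locus. A fold near the lower end of mirr is thus taken over a higher level than one at ara or caup, and what raised the background there was not tested.

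A second feature was shared by all 4 genes. The last region inside the upper end was in each case the widest with its summit in the gene and the one with the highest fold there, and in pnr it was the only one. In ara it was 3L 12594390 to 12595736, 1347 bp wide, with a fold of 2.59 (interval 2.17 to 3.08). In caup it was 3L 12619567 to 12620678, 1112 bp wide, with 2.35 (1.97 to 2.78). In mirr it was 3L 12708074 to 12709060, 987 bp wide, with 2.41 (2.01 to 2.86). The next highest fold of a region with its summit in ara was 2.57 (2.13 to 3.07). It was 2.04 (1.69 to 2.44) in caup and 2.14 (1.84 to 2.49) in mirr. In each gene this interval overlapped that of the last region, so the order by fold was within counting error.

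In pnr the region of this kind, 3R 16038726 to 16040229, was 1504 bp wide and had a fold of 2.78 (interval 2.32 to 3.31). The intervals of the last regions of the 4 genes overlapped. The summits stood 990 bp inside the upper end of ara, 1508 bp inside that of mirr, 1727 bp inside that of caup and 1813 bp inside that of pnr. None of these regions was strong.

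A strong region at 1 end together with a region of 900 bp or more whose summit was within 2 kb inside the other end was found in 5.18% of genes of 10 to 20 kb. Among the 251 of these genes with a strong region at an end it was 19.9%. The limits of this description were chosen after the member genes had been seen, so the 4 members are given beside the background only as a description.

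**Figure D3:**
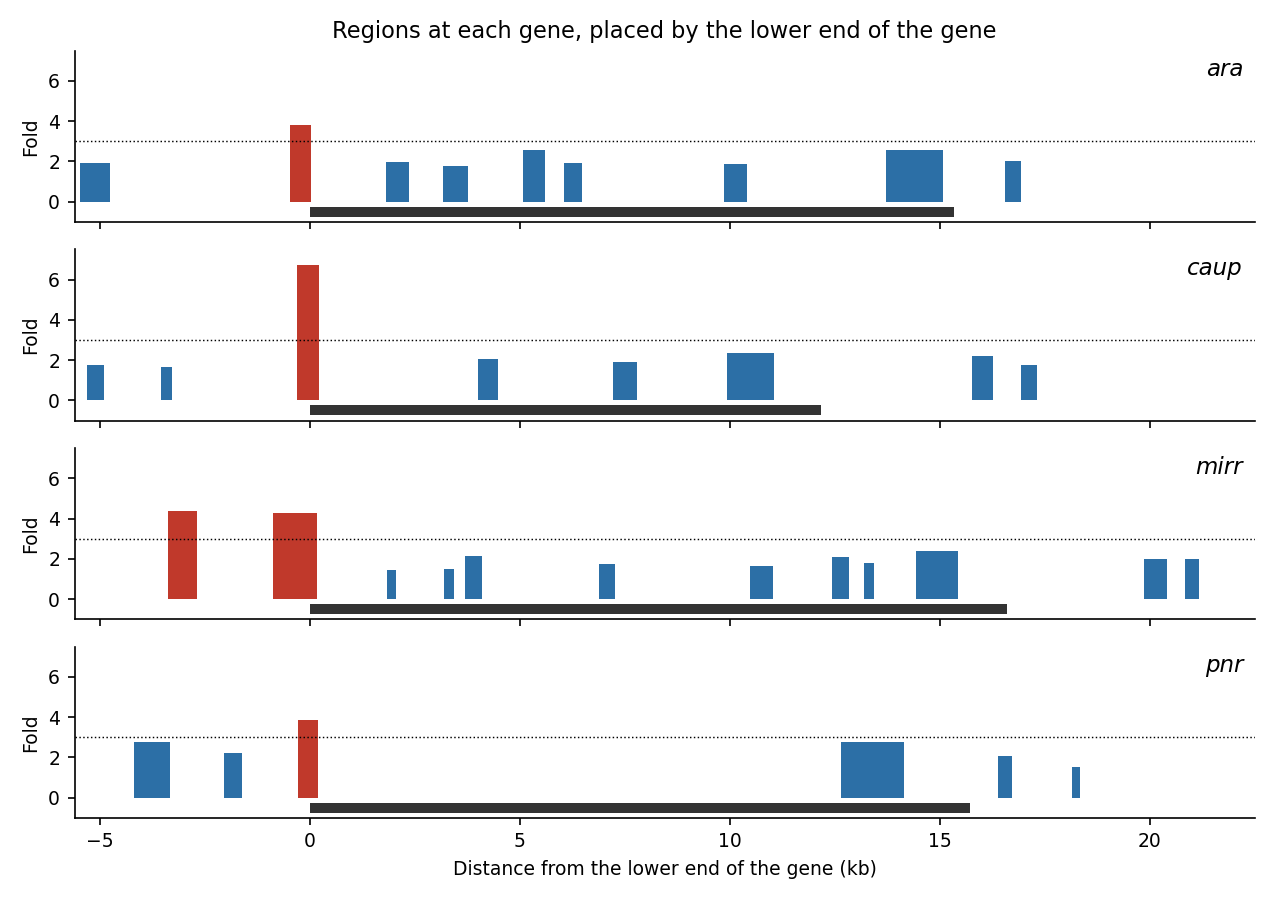
Regions at ara, caup, mirr and pnr by distance from the lower end of each gene in kb. Bars give the fold over local background and the width of each region, red for strong regions, with the gene as a dark bar and the limit of 2.999 dotted. Each gene has a strong region over its lower end and a wide region of fold 2.35 to 2.78 shortly inside its upper end.

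The pnr locus was otherwise unlike the Iroquois locus. It held 6 regions in 25.7 kb, or 23.3 per 100 kb, against 19.97 on 3R. The median window of this length held 5 summits and 44.9% of windows held 6 or more, so the number of regions was near that of the list. Regions covered 14.7% of it, against 12.9% of 3R. The window of equal length below held 7 summits and the one above held 14.

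Inside pnr there was a single summit, that of the wide region near the upper end, and 18.4% of genes of 10 to 20 kb held 1 or none. The gap from 3R 16026264 to 16038725, 12.5 kb long, made up most of the gene. Of all gaps between neighbouring regions 6.998% were longer. The longest gap at the Iroquois locus was 5.25 kb. The list gives no values outside its regions, so a gap says only that no region was called there.

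Within 5 kb, the regions below pnr had higher folds than those above it. The 3 below had folds of 2.75, 2.23 and 3.86, the last at the gene end. The 2 above had folds of 2.09 and 1.51, and the weaker had its summit inside Jhbp4. The intervals of 2.23 (1.82 to 2.70) below and 2.09 (1.69 to 2.55) above overlapped. Beyond 5 kb above pnr, a region at msps had a fold of 4.03, higher than any of these. The region of fold 2.75 (interval 2.33 to 3.22), 3R 16021883 to 16022751, lay between GATAe and pnr and also within 5 kb of GATAe. It was the highest in GATAe or within 5 kb of it, and the ends of that gene had at most 2.23.

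**Figure D4:**
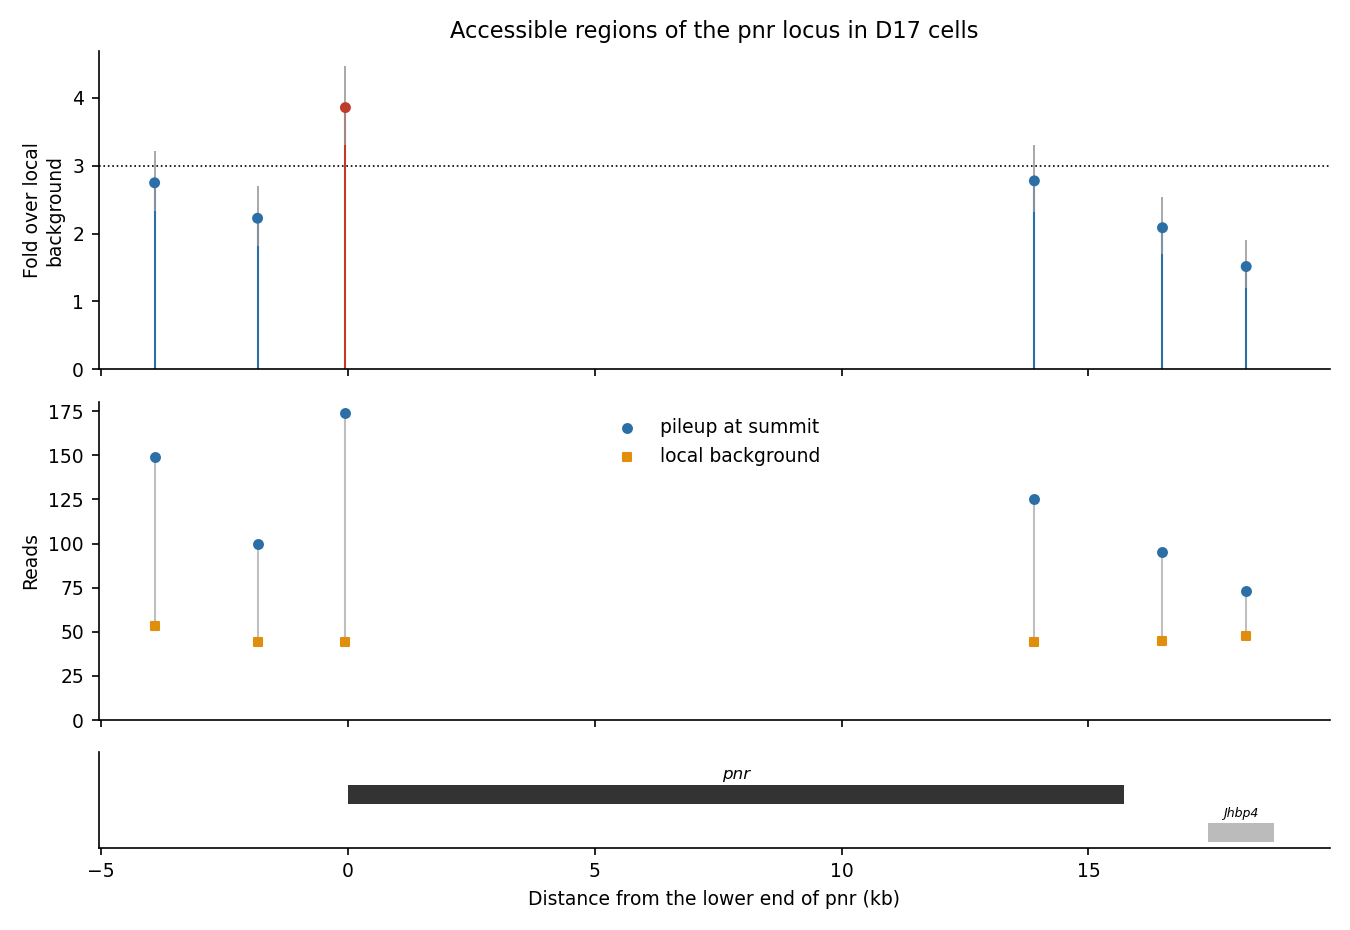
Regions of the pnr locus by distance of the summit from the lower end of pnr in kb, with fold and 95% Poisson intervals (top), reads at the summit and in the local background (middle) and genes (bottom). The single strong region, fold 3.86, lies at the lower end, and no region lies in the 12.5 kb that follow it.

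Above mirr, within 5 kb, were 2 regions that were not strong, with folds of 2.01 and 1.98. The limit of 5 kb fell between regions of much the same strength. At the Iroquois locus the outermost regions inside it had folds of 1.93 below ara and 1.98 above mirr. The next outside had 1.64 and 1.89. At pnr the outermost inside had folds of 2.75 and 1.51, and the next outside 2.23 and 1.67.

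All 4 members had regions in the gene or within 5 kb, as did 93.4% of protein-coding genes. Counted this way, mirr had 12 regions, ara 9, caup 8 and pnr 6, against a median of 4 for protein-coding genes and 7 for those of 10 to 20 kb. With 1 condition there is no pattern across samples to compare, so likeness was taken over number of regions, highest fold and length among 13032 genes with a region. By this measure the nearest genes were puf and CG15312 to ara, sws and ctp to caup, srp and CG42327 to mirr, and lab and HGTX to pnr. The homeobox gene lab had 6 regions, a highest fold of 3.70 and a length of 17.2 kb.

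Genes that act with the members and their GATA and TALE family relatives were listed with earlier results of these data known. The 42 listed genes include 4 GATA and 4 TALE genes taken as family relatives. A strong region lay in the gene or within 5 kb of it for 30 of 42, against 28.3% of protein-coding genes and 52.2% of those of 10 to 20 kb. At an end there was one for 21 of 42, against 11.4% of protein-coding genes and 26% of those of 10 to 20 kb. The median of the highest fold was 4.999 over the listed genes with a region and 2.45 over all protein-coding genes with one. The 4 members, at 3.82 to 6.73, were not above the listed genes.

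Regulators of the members in the discs had a strong region in 15 of 16 genes, against 28.3% of protein-coding genes and 52.2% of those of 10 to 20 kb. The highest folds were those of wg, a Wnt ligand gene (8.64, interval 7.81 to 9.54), and brk, a repressor of Dpp targets (8.22). Next were en, the posterior selector gene (7.95), and tup, a LIM homeobox gene of the notum (7.63). The exception was toe, with 2.32, while its neighbour eyg, a Pax gene of the notum, had 3.11.

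Partners of pnr had a strong region in 4 of 6, against 28.3% of protein-coding genes and 52.2% of those of 10 to 20 kb. These 4 genes were of 14627 to 64341 bp, and Chi and Ssdp, without one, of 2406 and 7102 bp. The cofactor gene ush held 30 regions, 6 of them strong, with a highest fold of 5.08 (interval 4.74 to 5.43). The Brahma complex gene osa had 6.62, the LIM-only gene Bx 4.58 and the corepressor gene CtBP 3.41. Chi and Ssdp, which encode partners in LIM factor complexes, had 1.97 and 2.02.

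Downstream genes were divided. They had a strong region in 5 of 12, against 28.3% of protein-coding genes and 52.2% of those of 10 to 20 kb. A strong region lay at rho, a protease gene of EGF receptor signalling (7.54), sr, a tendon cell factor (6.99), emc, an inhibitor of proneural factors (6.37), and fng, a modifier of Notch (5.36). It also lay at the Notch ligand gene Ser (4.98). The ligand gene Delta had a single region of fold 2.14, and B-H1 and B-H2 had 1.59 and 1.70.

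The proneural genes ac, sc, l(1)sc and ase had no region in the gene or within 5 kb, which was so for 6.55% of protein-coding genes. None lay in the 93.1 kb of X from ac to ase, where X as a whole held 15.4 regions per 100 kb. The nearest region to ac was 90.5 kb away with a fold of 1.68 (interval 1.32 to 2.09). The nearest to ase was 28.4 kb away, with 1.90 (1.53 to 2.34). Whether this sequence was closed, could not be mapped or is missing from the D17 genome cannot be told apart from the list.

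The highest fold at pnr, 3.86, was below those of 3 of the 4 other GATA genes, which were 7.89 at grn, 5.34 at GATAd and 4.59 at srp, the blood cell factor. These 3 were strong, and GATAe had no strong region. That was 3 of 4, against 28.3% of protein-coding genes and 52.2% of those of 10 to 20 kb. Neighbours on 3R, srp, GATAe and pnr had 12, 6 and 6 regions, in that order. These counts are not separate. The regions 3R 16021883 to 16022751 and 3R 16024031 to 16024452 were counted for both GATAe and pnr. The 2 regions with their summits in lncRNA:CR42839, between srp and GATAe, were counted for both srp and GATAe. Of the other TALE genes, 3 of 4 had a strong region, against the same 28.3% and 52.2%. The highest fold at hth, a gene of 132008 bp, was 10.5 (interval 9.62 to 11.4). The neighbours achi and vis shared a region of 4.23, and exd had 2.07.

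**Figure D5:**
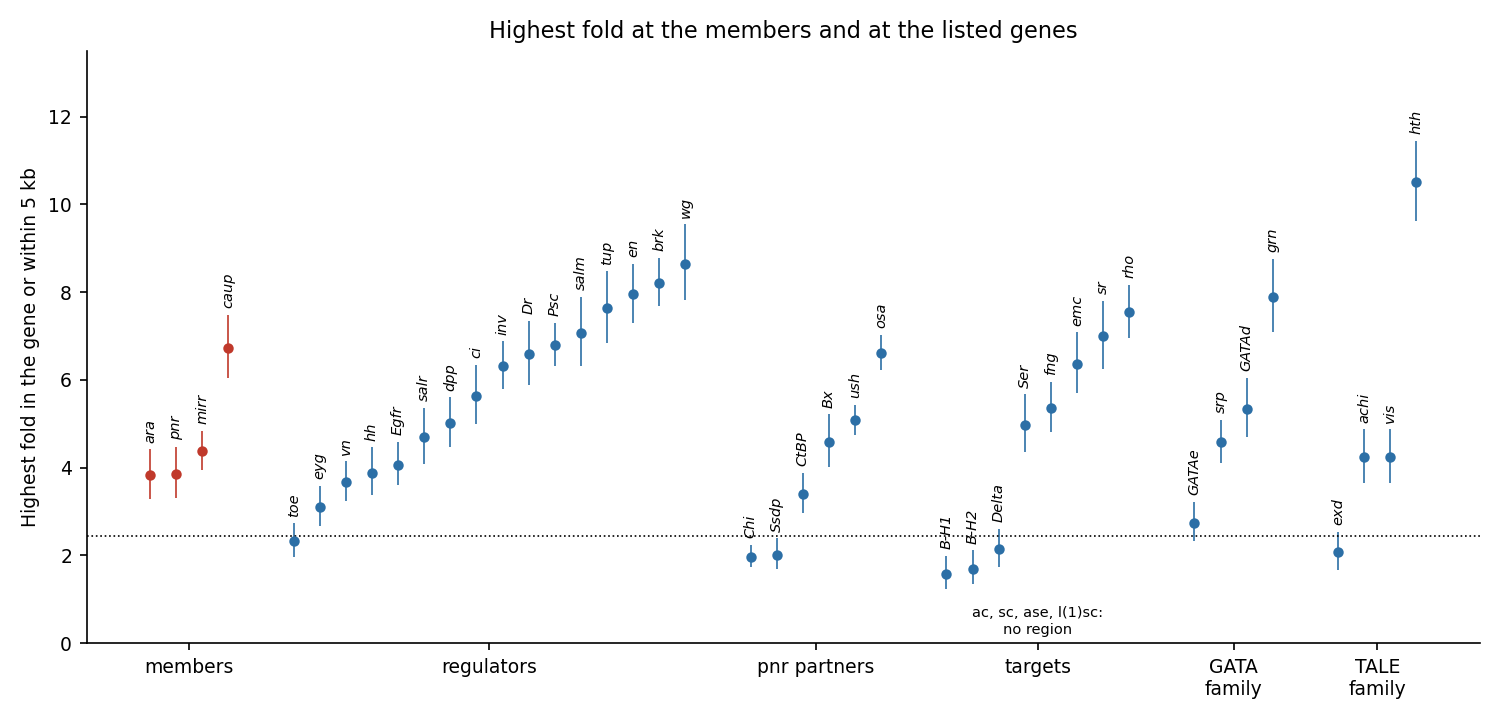
Highest fold over local background in each gene or within 5 kb of it, with 95% Poisson intervals, for the members (red) and the listed genes (blue), in rising order within each list. The dotted line is the median of protein-coding genes, 2.45; ac, sc, ase and l(1)sc had no region.

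Markers were read from accessible regions alone, since the list holds no expression. All 10 disc genes of wing and haltere had a strong region in the gene or within 5 kb, as had 7 of 7 notum genes, a list that includes the 4 members. It also lay at 6 of 7 hemocyte, 4 of 5 neuron and 2 of 4 muscle genes. The share was 28.3% of protein-coding genes and 52.2% of those of 10 to 20 kb. Most disc genes are longer than this class: Ubx, nub, ap, sd, rn, ct, Dll and hth are of 20846 to 132008 bp. The other lists also hold genes longer than 20 kb, so the class is not a background of like length. The hemocyte genes He and NimC1 were counted for the same region. The ends themselves carried one in 6 of 10 disc, 6 of 7 notum, 1 of 7 hemocyte, 1 of 5 neuron and 1 of 4 muscle genes. The share was 11.4% of protein-coding genes and 26% of those of 10 to 20 kb. Of the 6 notum genes, 4 were the members, whose end regions are those described above. The others were eyg and tup, also listed as regulators, so the notum count is not separate from the earlier ones. Ubx, the haltere selector gene, had no region at either end and 4.12 inside it.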

How the data were processed

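The labels put 2 ATAC-seq libraries of D17 cells in 1 group. Per the submitters' processing notes, the tools were MACS2 2.2.6, Bowtie2 2.3.5.1, Trim Galore 0.6.4, bedtools 2.29.2 and SAMtools 1.13, and dm6 and BDGP6 are the builds named. Not given in the sources used here are their roles, any pooling of the libraries, any shift for the transposase and the sequencing depth.

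The deposited list has 10 columns and no header. By its layout and values, the deposited fold is the ratio of summit pileup to local background. Its −log10 p-value and −log10 q-value are the authors' values at the summit (lowest −log10 q, 1.34). The deposited score was, in 99.95% of regions, the −log10 q times 10 without its decimals. These values belong to the group, with no SD, and were used only within the list.

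Fold was read as (pileup + 1)/(background + 1). The whole-number pileup whose Poisson tail met the deposited p-value was found for every region, with a relative error of at most 2.11e-05. This step was tested on simulated data. For each fold an exact Poisson 95% interval was taken from the pileup alone. Reads carry no molecular identifiers and may repeat the same molecule.

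Gene positions came from a RefSeq table of the Release 6 assembly (17807 genes on the chromosomes used), matched by symbol, or by synonym for the genes also called msh, Lmo, BarH1, BarH2 and Dl. Overlap means at least 1 bp. Regions were assigned to stretches by summit. Strong regions include ties at the limit. Members and lists were chosen with earlier results of these data known. The regions described were the strong ones and the highest of each stretch, and of each list the 4 genes with the highest fold and those with no region. Other genes were added where they complete a count or neighbour a member. With 1 group and no values per library, no test between groups was made. A planned motif search was not run because sequence was not used here. Python 3.11.15, numpy 2.4.6, pandas 2.3.3, SciPy 1.17.1 and matplotlib 3.10.9 were used.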

Additional observations from a re-analysis of the deposited data

How the results depend on the processing

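The alternatives were other flanks, end windows, limits, merged regions and, chosen after the data were seen, ranking by pileup and genes of 10 to 20 kb. A strong region at the lower end was kept by 2 of the 4 members, caup and mirr, with the highest 5% by fold, and by 3, without pnr, with the highest 10% by pileup. It was kept by all 4 with the highest 20% by fold, the highest 10% by score, windows of 200 and 1000 bp and the summit inside the window. These settings were added for this count after the data were seen. Every member kept a region of any strength at an end under each window and threshold tried, and the highest fold at each gene moved within its interval. In the 50% of regions with the higher score the Iroquois locus held 35 regions. With a flank of 10 kb the pnr locus held 10 regions, 2 of them strong. With the highest 5% by fold the Iroquois locus had 3 strong regions and pnr 0, and with the highest 20% they had 10 and 3. With the highest 10% by pileup pnr had 0. A limit or flank changes these counts by its construction. The listed genes with a strong region numbered 26 with the highest 5% (14.2% of protein-coding genes), 31 with the highest 20% (49.5%) and 21 at ends alone (11.4%). No paired analysis was possible because there is 1 group, and no library could be left out because the list gives no values per library. The motif search and its alternative were not run. Counting error of 70 to 395 reads per summit limits the folds.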

Other observations

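The sequence without a region around the achaete-scute complex ran well past the proneural genes. It reached from X 279543 to 491623, or 212 kb, and held 20 protein-coding genes in full. It was the second longest of 3622 gaps on X and stood at rank 8 of 26564 gaps in the list. Of the proneural genes, ac and sc are known targets of both the Iroquois factors and the product of pnr. The list gives no reads outside its regions, so the level over this stretch was not measured, and closed, unmappable and missing sequence cannot be told apart.

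The gene msps, above pnr and outside the limit of 5 kb, had a strong region at its lower end. This region, 3R 16050798 to 16051675, had a fold of 4.03, and its 95% Poisson interval was 3.56 to 4.55. That interval overlapped the one of the region at the lower end of pnr.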
